A study of Mus musculus with 3 samples.

Results

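Transcripts annotated as targets of nonsense-mediated decay were measured in the cytosolic fraction of mouse macrophages. Of 7186 transcripts with that annotation (called decay transcripts here), 683 (9.50%) reached a mean of at least 1 TPM, an abundance per unit of transcript length scaled to a fixed total. They were chosen by this mean TPM over the libraries, so their levels are given as a description, with no test. They belonged to 600 of the 4576 parent genes that have such an annotation. A further 2943 decay transcripts were listed at 0 in every library.

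Nonsense-mediated decay is a quality control pathway that degrades messenger RNAs whose stop codon lies too far upstream of an exon junction. Splicing leaves a protein complex near each junction, and a ribosome that stops before the last of these lets the helicase Upf1 and its partners mark the RNA for degradation. Translation triggers the pathway, and many splicing regulators use it to limit their own messenger RNA through a so-called poison exon, an exon that brings in a stop codon.

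The cells were bone-marrow-derived macrophages of mouse strain C57BL/6J, primary cells grown out of marrow. They had been given lipid A, the part of bacterial lipopolysaccharide that stimulates the receptor Tlr4, at 100 ng/ml for 12 hours, were washed out for 12 hours, and received 100 ng/ml again for 60 minutes. Cytosolic RNA was depleted of ribosomal RNA and sequenced in 1 group of 3 libraries, each from 1 µg of RNA. The labels give the libraries the same donor entry, do not say that the cultures came from different animals, and record neither age nor sex.

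The authors gave 2 sets of transcript tables, the first from reads aligned to transcripts, which is used unless the second is named, and the second made directly from the reads. Expected counts, reads assigned to features by an estimate, totalled 50807046, 53364168 and 46546422 on genes in replicates 1, 2 and 3. A count of 0 allows up to 3 counts, or 0.059, 0.0562 and 0.0645 CPM in the same order, by counting error only. In replicates 1, 2 and 3, 520154, 547780 and 458189 counts fell on the 683 decay transcripts, 1.02%, 1.03% and 0.984% of those on transcripts. The 8 macrophage markers checked, which include Lyz2 and Csf1r, summed to 8773, 6361 and 6788 TPM. Markers of B and T cells summed to 0.17 TPM or less in every library, those of fibroblasts to 6.87 or less and those of neutrophils to 9.07 or less. The 4 nuclear RNAs checked summed to 27901, 27010 and 68714 TPM, so replicate 3 stood apart from the others by these RNAs. Nearly all of each sum was Rn7sk, at 27778, 26912 and 68232 TPM. Malat1 stood at 112, 90.6 and 452 TPM and Neat1 at 10.9, 7.1 and 29.7, both also highest in replicate 3.

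The stop codons of 11 of these transcripts are shown because they are the feature that places a transcript in this class. Each line gives the end of the reading frame within the exon that holds the stop codon, 5′ to 3′ on the transcript's own strand, with the stop codon in capitals. All come from the GENCODE M21 transcripts on build mm10. The first 8 stops lie in cassette exons, inner exons that overlap no exon of any coding transcript of the gene, and the last 3 in sequence that coding transcripts also carry.
Srsf3-201, chr17:29039454-29039487: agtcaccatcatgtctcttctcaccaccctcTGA
Tra2b-206, chr16:22259181-22259225: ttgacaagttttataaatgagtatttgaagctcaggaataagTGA
Hnrnpll-203, chr17:80044976-80045020: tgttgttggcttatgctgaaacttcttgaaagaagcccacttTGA
Hnrnpl-213, chr7:28817349-28817393: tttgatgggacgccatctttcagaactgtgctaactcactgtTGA
Rbm39-225, chr2:156178881-156178925: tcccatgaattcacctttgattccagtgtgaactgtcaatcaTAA
Ostf1-205, chr19:18598954-18598989: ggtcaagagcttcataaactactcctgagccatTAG
Atp5f1-203, chr3:105957934-105957978: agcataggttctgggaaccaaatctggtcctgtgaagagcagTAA
Il4ra-205, chr7:125571934-125571953: caagtaatgaaaatctgTGA
Ppia-201, chr11:6418226-6418243: aaaactttcgagctcTGA
Oasl2-205, chr5:114901246-114901290: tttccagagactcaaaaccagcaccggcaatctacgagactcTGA
Lilrb4a-205, chr10:51491434-51491478: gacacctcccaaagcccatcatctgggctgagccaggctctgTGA

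The runs that start at the first base of the exon (Srsf3-201, Ostf1-205, Il4ra-205, Ppia-201 and Lilrb4a-205) show how soon after the splice junction the frame ended. The poison exon of Srsf3-201 was 456 bases long, that of Tra2b-206 276, that of Hnrnpll-203 83 and that of Ostf1-205 77. In Ppia-201 the stop lay in exon 3 of 5 after 120 bases of coding sequence, 244 bases before the last junction.

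Nearly all of the decay transcripts had the structure that the pathway is known to act on. Of the 682 with an annotated stop codon, 680 (99.7%) had it at least 50 bases before the last exon junction, and among all annotated decay transcripts the share was 99.5%, since annotators use such a rule to give the label. The median distance was 356 bases (quartiles 164.5 and 721) with a median of 3 junctions after the stop, against 331 bases and 3 junctions in the decay transcripts under 1 TPM. Xaf1-201 had the shortest distance, 29 bases. TGA was the stop codon of 374, TAA of 171 and TAG of 137.

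**Figure D1:**
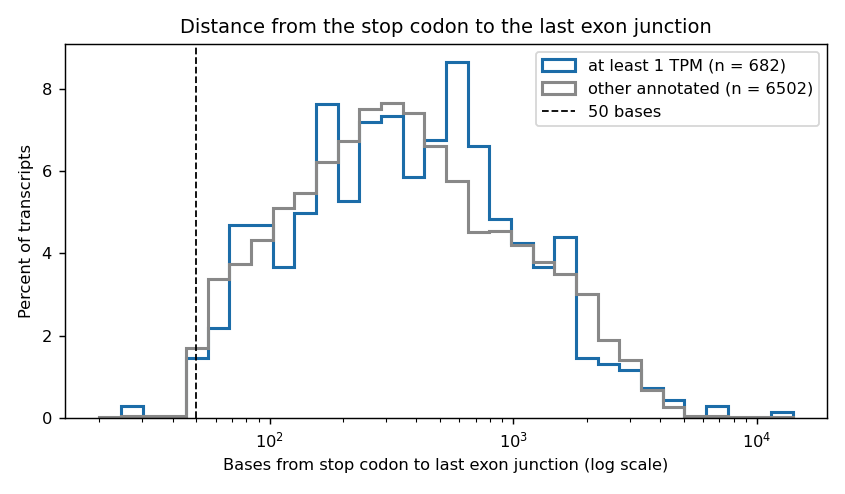
Distance in bases (log scale) from the stop codon to the last exon junction, as the percent of transcripts per bin, for the 682 decay transcripts at a mean of at least 1 TPM that have a stop and for 6502 other annotated ones; the dashed line marks 50 bases, and distances under 20 bases are not drawn. The distributions overlap over nearly their whole range, and few transcripts lie left of the dashed line.

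The stop lay inside the coding sequence of a coding transcript of the same gene in 403 of the 682, so these frames ended early in exons that are otherwise translated. In 191 it lay between exons of coding transcripts and outside all of them, called intron sequence here, in 67 it was the stop codon of a coding transcript itself, and in 8 it lay in exon sequence that coding transcripts leave untranslated. The stop exon was a cassette exon in 110 (16.1%), against 18.6% of the decay transcripts under 1 TPM. Those that share a coding transcript's stop held a median of 26.4% of their parent gene, those with the stop in coding sequence 18.5% and those with it in an intron 16.4%. In the second tables, the order of the last pair was the other way round, at 15.6% and 18.7%.

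Few of these transcripts had much sequence that only they carry. Of the 683, 227 had exon bases found in no other transcript of the gene, 340 had only a splice junction of their own, and 116 had neither, so that their level rested on the combination of exons. The median length was 1500 bases, against 1213 in the decay transcripts under 1 TPM. The best transcript support level of the annotation was given to 279 (40.8%), against 27.7% of those under 1 TPM. The uncertainty of the assignment was larger than for other classes: the authors' posterior SD of the count was a median of 1.76 times the square root of the count, against 1.07 for coding transcripts and 1.36 for transcripts with a retained intron, each at 1 TPM or more.

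Most decay transcripts were low. The median was 2.32 TPM (quartiles 1.45 and 5.16), 298 lay from 1 to under 2 TPM, 78 reached 10 TPM and 5 reached 100. Of the 683, 546 were at 1 TPM or more in every library and 10 were listed at 0 in 1 or 2 libraries. The lower bound of the authors' interval, whose level the files do not state, was at least 1 TPM in every library for 369. The median of their mean expected counts was 307, and 542 had a mean of at least 100. Just inside the threshold were Akap8-211 at 1.00 TPM, Bclaf1-207 at 1.01 and Cipc-202 at 1.01, and just outside it Gsto1-206 at 0.993, U2af1-208 at 0.99 and Pgap2-218 at 0.99.

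Together, all annotated decay transcripts held 1.64%, 1.75% and 1.64% of the TPM of nuclear protein-coding genes in replicates 1, 2 and 3, a mean of 1.67% ± 0.0632 (SD, n = 3). The 683 held 1.48% ± 0.0658 of it. Transcripts with a retained intron, which are often kept in the nucleus, held 2.85%, 2.94% and 3.21%, highest in the library with the most nuclear RNA, whereas the decay transcripts were highest in replicate 2. The part of nuclear RNA in these values was not tested. In the second tables, decay transcripts held 1.93% ± 0.0949.

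Highest of all was Ppia-201 (chromosome 11, 6415870 to 6419815, mm10), from the gene of cyclophilin A, a protein-folding enzyme. It stood at 358, 334 and 303 TPM in replicates 1, 2 and 3, and the highest coding transcript of the gene, Ppia-202, at 174, 157 and 138. The decay transcript lay above the coding one in every library, and held 65.5%, 67.9% and 68.6% of the gene. Ppia has many near-identical processed copies in the genome, so the assignment of its reads is uncertain.

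Rgs1-204 (chromosome 1, 144244673 to 144249057) comes from the gene of a regulator of G protein signalling that is active in immune cells. It stood at 367, 324 and 150 TPM, with replicate 3 well under the others. Its share of the gene was nearly level at 60.3%, 59.8% and 61.2%, since the whole gene was lower in that library. The next transcript of the gene, Rgs1-203 with a retained intron, held 34.9%, and the highest coding transcript, Rgs1-208, only 3.24%.

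Hnrnpu-206 (chromosome 1, 178323074 to 178337728) stood at 64.3, 66.0 and 55.5 TPM, against 15.4, 11.8 and 11.1 for the coding transcript Hnrnpu-201. Hnrnpu encodes a nuclear RNA-binding protein that helps to organise chromatin. The decay transcript held 79.9%, 84.4% and 81.6% of the gene, and 83.0% in the second tables. Its stop lay in sequence that coding transcripts leave untranslated, 183 bases before the last junction, and it had no exon base of its own.

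The other transcripts among the 12 highest included 3 of interferon-induced antiviral genes. Oasl2-205, of a 2′-5′-oligoadenylate synthetase-like gene, stood at 122, 103 and 98.5 TPM, and Mx1-205 at 142, 56.5 and 94.6, and Xaf1-201, of an apoptosis regulator, at 55.0, 33 and 39.1. Mx1 encodes an antiviral GTPase, and the gene is known to carry a deletion in many laboratory strains. All 3 were highest in replicate 1, and their shares of the gene were 61.0%, 52.0% and 42.6% on average. In the second tables these shares were 49.5%, 35.7% and 40.1%.

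Receptors and housekeeping genes made up the rest. Lilrb4a-205, of an inhibitory immunoglobulin-like receptor of myeloid cells, stood at 119, 97.3 and 68.0 TPM, and Lilr4b-204, of its close relative, at 107, 103 and 92.6. These genes are near-identical neighbours, so the split of reads between them is uncertain. Rpsa-206, of a ribosomal protein gene, had a mean of 62.2 TPM, Ctsh-202, of the lysosomal protease cathepsin H, 84.2 TPM, and Ostf1-205, of an intracellular signalling protein, 82.4 TPM. Ctsh-202 was the only one of the 12 that stood below the highest coding transcript of its gene in the mean, with Ctsh-201 at 113 TPM.

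**Figure D2:**
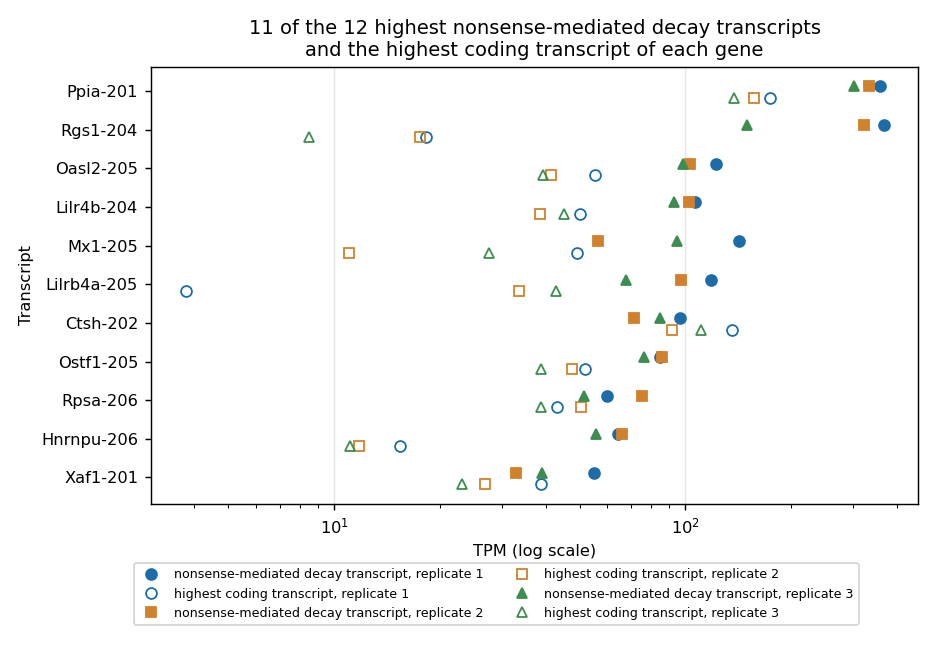
TPM (log scale) of 11 of the 12 highest decay transcripts (filled) and of the highest coding transcript of the same gene (open) in each of 3 libraries, with a marker shape for each replicate. Filled markers lie to the right of the open ones of the same replicate for every gene drawn except Ctsh, and Lilrb4a shows the widest spread of the coding transcript, from 3.78 to 42.8 TPM.

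A typical decay transcript was a minor product of its gene. The median share of the parent gene was 18.7% (quartiles 7.82% and 35%), with medians of 18.3%, 19.2% and 19.4% in replicates 1, 2 and 3 and 16.9% in the second tables. It was under 5% in 101 and over 50% in 87, and 61 were over 50% in both sets of tables. As these transcripts had to reach 1 TPM, the gene's own level limits how small a share could be seen. For comparison, transcripts with a retained intron at 1 TPM or more held a median of 16.8% and coding transcripts 57.0% of genes with at least 2 annotated transcripts.

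Nevertheless, 148 of the 683 (21.7%) were the highest transcript of their gene, 116 of them in every library and 115 also in the second tables. Of 677 with a coding transcript in the gene, 171 stood above the highest coding one. The remaining 6 had no coding transcript in the gene, and 4 were its only annotated transcript. Among transcripts with a retained intron at 1 TPM or more, 15.8% were the highest of their gene, and 21.2% of decay transcripts counted the same way, in genes with at least 2 transcripts.

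**Figure D3:**
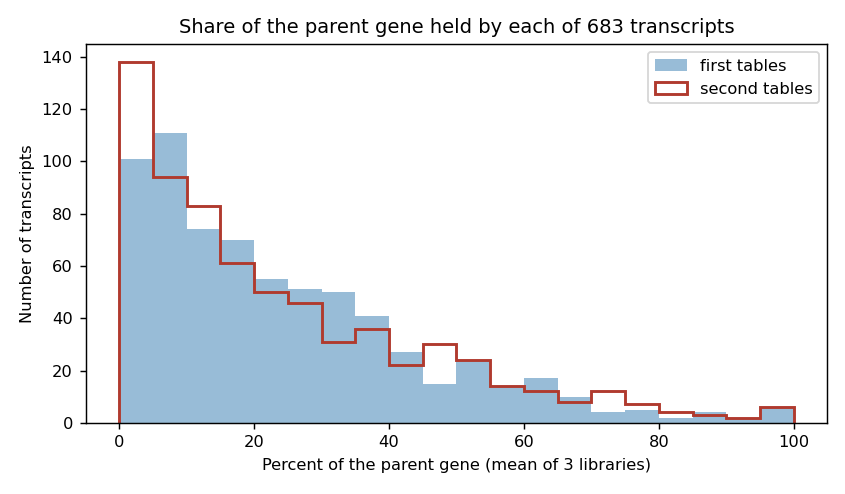
Number of decay transcripts (of 683) by the percent of the parent gene they held, mean of 3 libraries, in the first tables (filled) and the second tables (outline), in bins of 5 points. Both distributions peak at low shares and have a tail to 100%, with medians of 18.7% and 16.9%.

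In genes at 5 TPM or more with at least 2 detected transcripts, the largest share belonged to Hyi-202, of a gene named for hydroxypyruvate isomerase. It held 97.8%, 97.6% and 95.9% of the gene in replicates 1, 2 and 3, at 7.07, 9.31 and 7.79 TPM. Its coding counterpart Hyi-201 was listed at 0 TPM in replicates 1 and 3 and at 0.17 in replicate 2. Of the genes of mitochondrial ribosomal proteins, Mrps14-201 held 90.4%, 87.8% and 88.4% and Mrpl32-201 74.0%, 82.8% and 84.7%. Aptx-205, of the DNA repair enzyme aprataxin, held 85.6% ± 3.14 (SD, n = 3), Gtpbp4-201, of a ribosome assembly GTPase, 77.3%, and Pgs1-201, of an enzyme of phospholipid synthesis, 72.4%. Of the 12 transcripts with the largest shares, 7 had a share within 5 points of the first in the second tables. The others moved further, Pet100-206 from 73.6% to 45.4%, Gga2-202 from 68.6% to 45.8%, Pgs1-201 to 65.5%, Prpf4b-208 from 68.7% to 62.9% and Ppia-201 from 67.3% to 73.7%.

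Splicing regulators are the best known users of poison exons. Decay transcripts at 1 TPM or more were found in 4 of 11 genes of SR proteins and Tra2 that have such an annotation and a gene TPM of at least 1, in 9 of 14 hnRNP genes and in 15 of 47 other splicing and RNA-binding genes. Over all genes eligible in this way the share was 21% (600 of 2861), and as the same TPM chose the transcripts, nothing is read from these counts. The 37 transcripts of the 3 lists held a median of 11.3% of their gene, and 9 of them had the stop in a cassette exon.

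Among the SR proteins, which promote exon inclusion, Srsf2-204 was the highest at 20.9, 21 and 22.5 TPM. It held 51.2%, 56.6% and 50.5% of the gene and lay above the coding Srsf2-201 in every library. Its stop is that of the coding transcript, with 2 junctions spliced downstream of it. Srsf3-201 carries the poison exon shown above and stood at 5.19, 4.67 and 3.12 TPM, 20.1%, 22.5% and 15.7% of the gene. It was lowest in replicate 3 in both sets of tables, and its share was higher in the second, at 30.9% on average.

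The activator Tra2b had its poison exon transcript Tra2b-206 at 3.57, 2.17 and 2.19 TPM, or 16.0%, 10.5% and 11.6% of the gene, and at 20.5% in the second tables. Srsf6-201 had a mean of 1.14 ± 0.624 TPM in the first tables and 3.86 in the second, where it was the highest transcript of its gene. Its mean share was 9.43% in the first and 54.7% in the second, so the level of this transcript depended on how reads were assigned.

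The hnRNP proteins bind nascent RNA and often repress exons. Of their 13 decay transcripts, 6 shared the stop codon of a coding transcript and had junctions spliced after it, among them Hnrnpdl-201, Hnrnpd-208 and Hnrnpa1-203. Hnrnpdl-201 stood at 8.15, 7.72 and 6.25 TPM, or 45.1%, 37.4% and 30.7% of the gene, and Hnrnpdl-205 added a mean of 20.4%. Hnrnpd-208 stood at 9.90, 15.8 and 14.1 TPM and Hnrnpa1-203 at 12.1, 17.5 and 13.9, both lowest in replicate 1. Hnrnpll-203, with the 83-base poison exon, stood at 1.86, 1.90 and 1.34 TPM and held 34.6% of its gene. Hnrnpl-213, from the gene of the related hnRNP L, held only 2.35%.

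Of the other RNA-binding factors, the helicase gene Ddx5 had the highest decay transcripts. Ddx5-208 stood at 7.82, 5.62 and 12.1 TPM, highest in replicate 3, and held 5%, 2.91% and 9.08% of the gene. It carries 729 exon bases of its own, with the stop in intron sequence of the coding transcripts. Its share was also highest in replicate 3 in the second tables, at 10.3%, the library with the most nuclear RNA, whose part in this was not tested. Rbm39-225, with a 73-base poison exon, stood at 6.40, 6.43 and 7.54 TPM and held 17.5% of its gene.

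**Figure D4:**
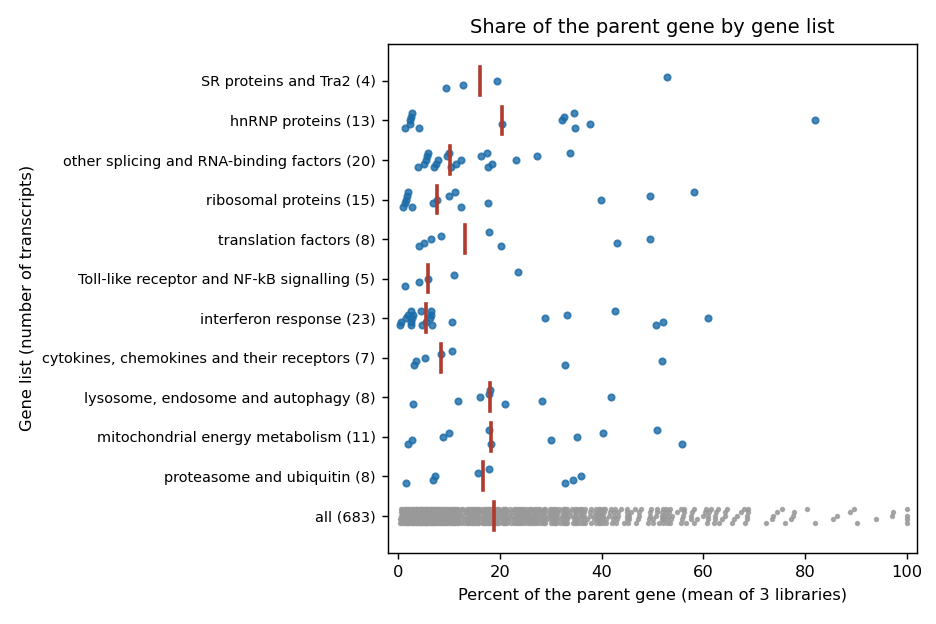
Percent of the parent gene (mean of 3 libraries) held by each decay transcript in 11 gene lists and by all 683; each point is a transcript, and red bars are medians. List medians run from 5.43% in the interferon response to 20.4% in hnRNP proteins, beside 18.7% over all, in the first tables. In the second tables, which are not drawn, the lowest was 2.35% in Toll-like receptor and NF-kB signalling. The highest there was 39.4% in SR proteins and Tra2.

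RNA of all the listed factors that carry out the decay was detected, and their proteins were not measured. All 33 genes of the pathway and of the exon junction complex stood at 1 TPM or more in every library, against 16.9% of all 55536 genes. This is not particular to them. All 48 translation factor genes, 82 ribosomal protein genes and 95 genes of mitochondrial energy metabolism listed also reached a gene TPM of 1. Of the 64 cytokine and receptor genes, 59 did. The helicase Upf1 stood at 10.3, 8.18 and 9.77 TPM, and its kinase Smg1 at 12.9, 8.99 and 11.6. The junction core protein Eif4a3 was higher at 30.1 ± 1.28 TPM (SD, n = 3), and Upf3b was the lowest of the list at 1.93 ± 0.165. Of the 33, 25 were highest in replicate 1 (75.8%), beside 68.5% of the 9382 genes at 1 TPM or more in every library.

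None of these factors had a decay transcript at 1 TPM or more, and 7 have 1 or more in the annotation. Over all eligible genes, 21% (600 of 2861) had one. The factor genes stood at a median of 8.11 TPM, which limits how small a share could reach 1 TPM. Nothing is read from this count, as the same TPM chose the transcripts. The highest decay transcript of the factors was Magohb-202, from a gene of the junction core, at 0.33, 0.42 and 0.65 TPM. Smg6-202, from the gene of the endonuclease that cuts the targets, stood at 0.28, 0.45 and 0.38 TPM, 16.2% of its gene. Decay transcripts of Smg1, Ruvbl2 and Pnn were listed at 0 in every library.

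Genes of the interferon response, which macrophages switch on downstream of Tlr4, held 23 decay transcripts in 21 of 28 eligible genes. Over all eligible genes the share with such a transcript was 21%, and nothing is read from this count. The median share of the gene held by the 23 was 5.43% (6.66% in the second tables), and 4 were the highest transcript of their gene. Next to the 3 antiviral transcripts above, Gbp4-202, of a guanylate-binding protein, stood at 25.6, 14.1 and 18 TPM and held 48.4%, 55.5% and 48.3% of the gene. Oas1g-203 stood at 18.1, 9.05 and 12.8 TPM and Gbp5-202 at 12.8, 11.4 and 7.21. These 3 had their highest TPM in replicate 1, as did 16 of the 23 (69.6%) and 362 of all 683 decay transcripts (53.0%). Of the 9382 genes at 1 TPM or more in every library, 68.5% were highest in replicate 1, near the figure for the 23. Psme1-209, of a proteasome activator subunit, was highest in replicate 3, at 7.53, 4.59 and 18.8 TPM. In the second tables it stood at only 1.00, 0.674 and 1.16 TPM, and its mean share was 1.37%, against 6.5% in the first. By the share of the gene, 3 of the 23 were highest in replicate 1, 10 in replicate 2 and 10 in replicate 3. Among all decay transcripts with a range above 0, the figures were 31.9%, 39.0% and 29.1% in the same order. Over all transcripts at 1 TPM or more they were 37.6%, 34.9% and 27.5%, and nothing is read from the counts of the 23. The Gbp, Oas, Mx and Ifi genes have near copies, so their assignments are uncertain.

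The transcription factors of this response had decay transcripts of small share. Irf7-212 held 0.563% of its gene at 3.85 TPM, Irf1-209 0.383% at 1.02 TPM and Irf2-210 4.63% at 1.48 TPM. The receptor transcripts Ifnar1-203 and Ifngr1-203 held 6.71% and 3.15%. Ifngr2-202 stood at 5.73, 0 and 0.95 TPM in replicates 1, 2 and 3, so its place above 1 TPM rested on replicate 1, and the second tables gave it 6.84, 6.01 and 5.49 TPM.

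Toll-like receptor and NF-kB signalling had 5 decay transcripts, each in 1 of 18 eligible genes. Over all eligible genes 21% had such a transcript, and nothing is read from this count. Rnf31-207, of a subunit of the linear ubiquitin ligase, stood at 3.20, 3.28 and 3.56 TPM, and Nfkb1-207, of the p50 precursor gene, at 4.65, 2.90 and 1.49. In the second tables these were at a mean of 0.164 and 0.0789 TPM. Tnfaip2-209 and Birc3-207, of genes induced by NF-kB, held 1.39% and 4.04% of their genes, and Azi2-210, of an adaptor of the kinase Tbk1, 5.73%.

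Cytokine and receptor genes had 7. Cxcl16-202, of a chemokine that is made as a membrane protein, stood at 37.4, 24.5 and 19.9 TPM and held 37.3%, 29.3% and 31.7% of its gene. Il4ra-205, of the interleukin 4 receptor, stood at 23.7, 10.1 and 19.8 TPM, with replicate 2 lowest, against 15.2, 11.2 and 21.1 for the coding Il4ra-201. It held 51.9% ± 7.41 (SD, n = 3) of the gene, and 79.1% in the second tables. Il15-209 and Il10ra-203 held 10.5% and 3.39%.

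Ribosomal protein genes had 15 decay transcripts in 12 of 19 eligible genes, with a median of 15.5 TPM but only 7.52% of their gene. Over all eligible genes the share with such a transcript was 21%, and nothing is read from this count. In the second tables, these 15 decay transcripts held a median of 12.5% of their gene. Translation factors had 8, led by Eef1b2-205 at 37.7, 44.8 and 22.3 TPM and by Eif4a2-210, of a helicase of the cap-binding complex, at 24.4, 23.6 and 16.4. Both were lowest in replicate 3, as was the TPM sum of all coding transcripts. That sum was 323278, 271294 and 258411 TPM in replicates 1, 2 and 3. Of the genes of mitochondrial energy metabolism, Atp5f1-203, with a 167-base poison exon of an ATP synthase subunit gene, stood at 30.2, 37.3 and 30.4 TPM and held 41.3%, 58.7% and 52.9%. Ndufa3-204, of a complex I subunit, stood at 48.4, 25.8 and 20.7 TPM and Mdh2-203, of malate dehydrogenase, at 17.7, 18.6 and 18.3.

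Among degradation genes, Ube2d3-214, of a ubiquitin-conjugating enzyme, stood at 18.5, 25.9 and 19.5 TPM with the stop in a 44-base cassette exon that it shares with other transcripts. Ube2n-205 and Psma3-201 had means of 16.3 and 12.3 TPM. Becn1-201, of the autophagy regulator beclin 1, stood at 13.2, 8.99 and 8.32 TPM, or 28.2% of its gene. Gusb-206, of a lysosomal glucuronidase, held 16.1% in the first tables but 1.51% in the second.

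Whether the share of the gene differed between the 3 libraries was tested on expected counts, transcript against the rest of its gene, by a chi-square test adjusted over all transcripts (Benjamini-Hochberg, threshold 0.05). Of 677 decay transcripts tested, 511 were called (75.5%), and over all 25879 transcripts tested 69.9% were called. From the estimated counts of the second tables, 493 of 660 were called, against 72.3% of all. The decay transcripts thus varied about as often as any transcript by this measure. The test covers counting noise alone. With the authors' posterior SD added to the variance, an alternative chosen after seeing the data, 166 of 677 were called (24.5%), against 18% of all. As the cultures may not be from separate animals, these tests measure only the spread between these samples.

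The direction was mixed. Among 677 with a range above 0, the share was highest in replicate 1 for 216 (31.9%), in replicate 2 for 264 (39.0%) and in replicate 3 for 197 (29.1%). Over all 14497 transcripts at 1 TPM or more, these figures were 37.6%, 34.9% and 27.5%. No library thus held the highest share for most of the decay transcripts. The part of nuclear RNA in these shares was not tested. Of 659 decay transcripts tested in both sets of tables, 437 were called in both (66.3%). Of these 437, 271 had the same highest and the same lowest library in both. Neither share was worked out over all transcripts, so nothing is read from these counts.

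Across the 683 transcripts, Spearman's rho of the share was 0.919 between replicates 1 and 2, 0.923 between 1 and 3 and 0.954 between 2 and 3. These values describe agreement over transcripts of the same annotation and share the same assignment method. The median SD of the share over libraries was 2.71 points.

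The largest ranges of the share among transcripts with at least 30 counts in every library belonged to 5 genes. Lilrb4a-205 held 83.7%, 62.4% and 46.5% of its gene in replicates 1, 2 and 3, while the coding Lilrb4a-202 stood at 3.78, 33.7 and 42.8 TPM. The second tables gave 80.9%, 78.5% and 55.9%, again lowest in replicate 3. Pet100-206, of a cytochrome oxidase assembly factor, held 56.5%, 77.6% and 86.7% in the first tables and 37.7%, 44.6% and 53.9% in the second. Dbndd2-206 held 31.8%, 40.7% and 68.0% in the first and 43.5%, 65.7% and 93.3% in the second. Both shares were highest in replicate 3 in both sets, though their levels differed. In the first tables, Dbndd2-206 itself was nearly level at 2.68, 2.44 and 2.77 TPM, and Pet100-206 stood at 9.21, 11.5 and 10.8. The whole Dbndd2 gene stood at 2.94, 2.01 and 1.37 TPM in the second tables, where Dbndd2-206 stood at 1.28, 1.32 and 1.28.

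Ermp1-201, of a membrane metallopeptidase, held 59.7%, 32.8% and 28.0% in the first tables and 63.7%, 64.1% and 46.7% in the second, so replicate 2 changed its place between the sets. Pik3cb-203, of a phosphoinositide kinase subunit, held 40.4%, 14.9% and 27.7% in the first and 71.7%, 66.6% and 71.7% in the second.

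**Figure D5:**
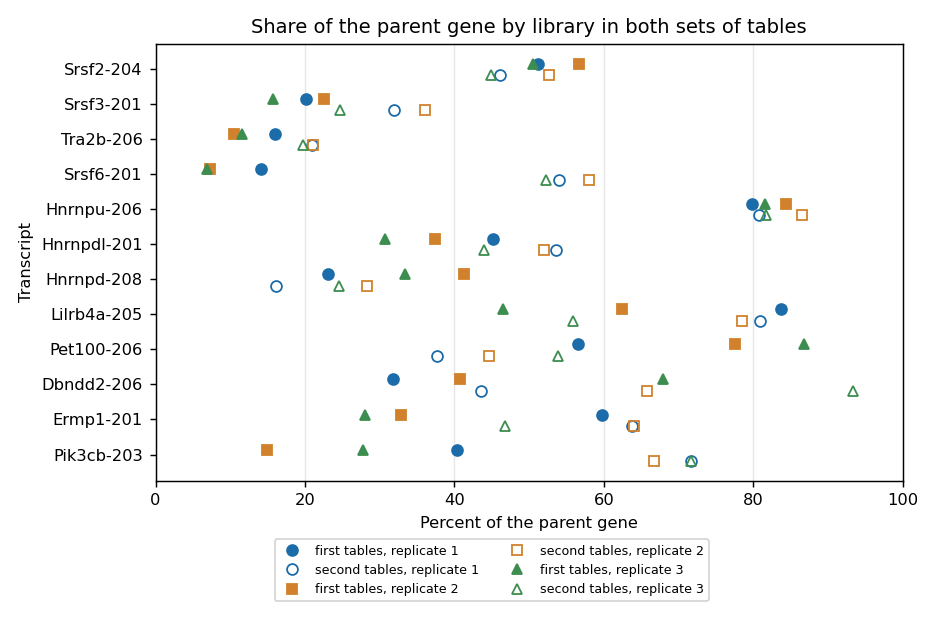
Percent of the parent gene in each of 3 libraries for 12 decay transcripts, in the first tables (filled) and the second tables (open), with a marker shape for each replicate. Hnrnpu-206 lies between 79.9% and 86.6% in both sets, while Srsf6-201 and Pik3cb-203 move to higher shares in the second tables in every library.

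The 2 sets of tables placed many decay transcripts alike and some far apart. Spearman's rho between them over the 683 transcripts was 0.731 for TPM and 0.797 for the share of the gene, and 497 had shares within 10 points. The second tables were lower for most, with a median ratio of 0.481 for decay transcripts and 0.446 for coding transcripts at 1 TPM or more, and 383 of the 683 reached 1 TPM there. Of the 683, 42 were higher in the second tables, by up to 7.15 times. For 56, the second value was less than 0.1 times the first.

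Myof-205, of the membrane repair protein myoferlin, stood at 13.6, 10.2 and 9.63 TPM in the first tables and at or near 0 in the second. Grk2-209, of a receptor kinase, was listed at 0 in replicate 1 and stood at 8.35 and 7.38 TPM in replicates 2 and 3, and was listed at 0 throughout in the second. Rpl12-201 had a mean of 38.6 TPM in the first tables and 0.935 in the second, where the whole gene stood at 1.40 TPM, against 96.3 in the first. In the other direction, Cct8-209 and Tor3a-202 were listed at 0 in the first tables and had means of 4.37 and 4.30 TPM in the second, so they are not among the 683.

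An incomplete start of the coding sequence in the annotation went with lower shares in the second tables. The 178 such transcripts held a median of 17.7% of their gene in the first tables and 9.30% in the second, and the 505 others 19.4% and 20.1%. Those with 6 or more junctions after the stop held a median of 21.8%, and those with 1 held 16.9%. Over the transcripts with a stop, Spearman's rho with the share was 0.111 for the number of junctions and 0.163 for the distance to the last junction, both weak, and the lengths of transcripts enter both measures.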

How the data were processed

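Total RNA sequencing of 3 libraries of 1 group was used, with replicate numbers from the labels. The authors deposited expected counts and TPM for genes and transcripts, made from reads aligned to the transcriptome (mm10, GENCODE M21), per the file headers and text deposited beside them. They also deposited the percent that each transcript holds of its gene. A second set of tables, made directly from the reads, holds estimated counts and TPM deposited by the authors. The posterior SD of the count and the TPM interval bounds were also deposited. The strand setting, aligner, tools and versions were not given in the sources used here, so reads of overlapping antisense genes cannot be told apart.

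Decay transcripts were taken by the biotype in the second tables and a mean TPM of at least 1 in the first. The percent of the gene in the second tables was computed here from TPM. Expected counts were rounded for the chi-square test, which needed 30 counts in sum on each side. Stop codons, junctions and sequences came from the GENCODE M21 annotation and transcripts, and own bases or junctions are those in no other transcript of the gene. Entries that are not genes held 0.378%, 0.0931% and 0.0772% of counts and were left out. The transcripts and 12 gene lists were chosen with earlier results of these data known. Of the list symbols, 1 matched no gene.

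Transcripts named were the 12 highest by TPM and the 12 highest by share, all in 6 lists, the 3 highest of each other list, the 5 with the largest range, those that differ most between the sets, and the nearest to the threshold; not every item that the rule takes is reported here. Alternatives were other TPM and count minimums, the second tables, rescaled TPM and leaving out each replicate. The share test was tested on simulated counts that carried counting noise alone, and then with reads moved by the authors' posterior SD as well. Python 3.11.15, pandas 2.3.3, numpy 2.4.6, scipy 1.17.1 and matplotlib 3.10.9 were used.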

Additional observations from a re-analysis of the deposited data

How the results depend on the processing

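The number of decay transcripts depends on the level asked for. It was 546 with 1 TPM in every library, 385 at a mean of 2 TPM and 1037 at 0.5 TPM. With the second tables it was 442, but 1 TPM is a stricter level there. The median ratio of second to first TPM was 0.446 for coding transcripts at 1 TPM or more. The number of decay transcripts was 1376 after TPM was rescaled over nuclear coding genes. It was 682 with a mean count of at least 10 and 665 to 695 without 1 replicate. The share of TPM of nuclear coding genes was 1.56% in the second tables and 1.44% to 1.5% without 1 replicate. The median share of the gene was 16.9% in the second tables and 18.5% to 19.1% without 1 replicate. The number that was the highest transcript of its gene was 161 in the second tables and 144 to 152 without 1 replicate. The number called in the share test was 508 with at least 10 counts (74.9%, beside 64.4% of all transcripts tested) and 501 with at least 100 (76.6%, beside 75.6%). It was 493 in the second tables (74.7%, beside 72.3%) and 352 to 389 without 1 replicate (52.4% to 57.8%, beside 50.8% to 54.5%). With the uncertainty of the estimate, the alternative added after seeing the data, it was 166 (24.5%, beside 18%). Of 95 named transcripts, 59 moved in their share by more than the SD between libraries in the second tables. No paired analysis was possible because there is 1 group. The mean count was at least 100 for 542 of the 683. The median difference in share between the sets was 3.75 points for transcripts with no own base or junction and 4.16 points for those with own exon bases.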

Other observations

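Several parent genes held more than 1 decay transcript at 1 TPM or more: 62 genes had 2, 8 had 3 and Tmem234, of a membrane protein, had 6. In the 71 genes with at least 2, these transcripts together held a median of 39.0% of the gene (43.8% in the second tables), and over 50% in 28. The 3 of Eif4a2 together held 68.0%, 74.2% and 72.0% in replicates 1, 2 and 3, the 3 of Mx1 60.7%, 62.1% and 63.0%, and the 6 of Tmem234 41.1%, 39.9% and 31.8%. The 2 of Mrpl32, of the mitochondrial ribosome, held 93.3% ± 0.644 (SD, n = 3), and the 2 of Ndufs4, of respiratory complex I, 74.0% ± 2.60. Bak1, of a mediator of apoptosis, had 63.2%, 79.7% and 74.1% in its 2, lowest in replicate 1. Tmem234, Ndufs4 and Bak1 were named after their values were seen.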
